A study of Danio rerio with 13 samples.

Results

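Transcripts of the splicing machinery were followed in hearts of zebrafish embryos after knockdown of an autophagy gene. The set was defined by gene name, and it was chosen with earlier results of these data known. It took every gene whose platform symbol begins as an Sm or LSm protein, an SF3A or SF3B subunit, a PRPF protein, an SR protein (srsf), an hnRNP, U2AF, PUF60 or SART, or names one of a few splicing helicases. It held 87 genes, measured by 112 of the 15502 probe sets analysed, and each gene was represented by its brightest probe set. Of the 87 genes, 85 passed a filter on dim signals that 10307 of all probe sets passed. The 2 that did not pass were snrpd2, a protein of the Sm ring, and lsm14b, an RNA-binding protein of P-bodies. Both lay under an intensity of 16 on all 13 arrays and are given no difference.

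The hearts came from embryos aged 3 days after fertilization, as 13 single-colour Affymetrix arrays of 1 sample each. A morpholino was injected against atg5 (3 arrays), becn1 (3 arrays) or atg7 (2 arrays), a control morpholino was injected for 2 arrays (numbered 2 and 3), and 3 arrays came from uninjected embryos. All 3 targets belong to the autophagy machinery: Beclin 1 acts in the kinase complex that starts the autophagosome, and Atg5 and Atg7 in the conjugation of Atg12 and LC3. No strain or genotype is named in the labels, the title of 1 becn1 array reads becn, and the sources used here give no number of embryos behind a sample. The labels call the arrays of a group biological replicates. A morpholino is an antisense oligonucleotide that blocks the translation or splicing of its target RNA, and the sources used here do not say which of these applied.

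The spliceosome removes introns in steps. U1 snRNP binds the 5' splice site, U2AF and U2 snRNP with its SF3A and SF3B subunits mark the branch point and the 3' splice site, and the U4/U6.U5 tri-snRNP then joins. DEAH-box and DEAD-box helicases remodel the complex, and SR and hnRNP proteins bind exons and introns and set which sites are used. The spliceosomal snRNPs carry a ring of Sm proteins, except those of the U6 type, which carry a ring of LSm proteins. These genes are expressed in every tissue, and dividing cells, which make much new RNA, usually express them strongly.

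Levels are log2 intensities after quantile normalization of the 13 arrays, and differences are on the same log2 scale with their standard error (SE). A difference was called at an adjusted p under 0.05 in limma, adjusted over all 10307 probe sets. Each knockdown was set against control morpholino and against both controls, meaning the average of the control morpholino and uninjected group means. Comparisons against the same controls share their arrays. The median intensity of an array ran from 32.4 for control morpholino array 3 to 65.4 for atg5 array 3. GAPDH, read by probe sets at both ends of its transcript as a sign of RNA integrity, had a ratio of 3' to 5' signal of 5.98 for atg7 2, while the remaining 12 arrays lay between 2.30 and 3.28. The same ratio for acta1 was 86.2 for atg7 2. It spread more widely over the remaining 12 arrays, from 8.03 for becn1 array 3 to 29.9 for control morpholino array 3. In these bulk samples, fewer cells of a type and less RNA per cell cannot be told apart. The heart muscle genes myl7 and tnnt2a had log2 levels of at least 6.63 and 6.36 on every array. Of the cardiac transcription factors, gata5, gata6 and hand2 passed the filter and gata4, nkx2.5 and tbx5a lay below it. The 11 heart muscle markers on the array summed to an intensity of 619 to 4822 per array. The sums were 13607 to 23204 for 12 epidermis markers, 8939 to 16471 for 15 of neuron and glia and 3974 to 18707 for 15 of skeletal muscle. For 11 leukocyte markers they were 2090 to 4769. The share of heart cells in the samples was not tested.

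No splicing gene was called in any of the 12 comparisons. The set as a whole lay modestly higher in the becn1 and atg7 hearts than in most controls. The median level of the 85 genes was 8.47, 8.75 and 8.75 on the atg5 arrays, 8.86, 8.90 and 8.84 on the becn1 arrays and 8.85 and 8.93 on the atg7 arrays, against 8.44 and 8.83 with control morpholino and 8.53, 8.66 and 8.63 uninjected. The becn1 and atg7 medians all lay above the 5 control medians, control 3 lay just under the lowest of them, and the atg5 medians lay inside the control range. Arrays are named by group and replicate number, with control for the control morpholino. The pooled SD of this median within groups was 0.13.

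**Figure D1:**
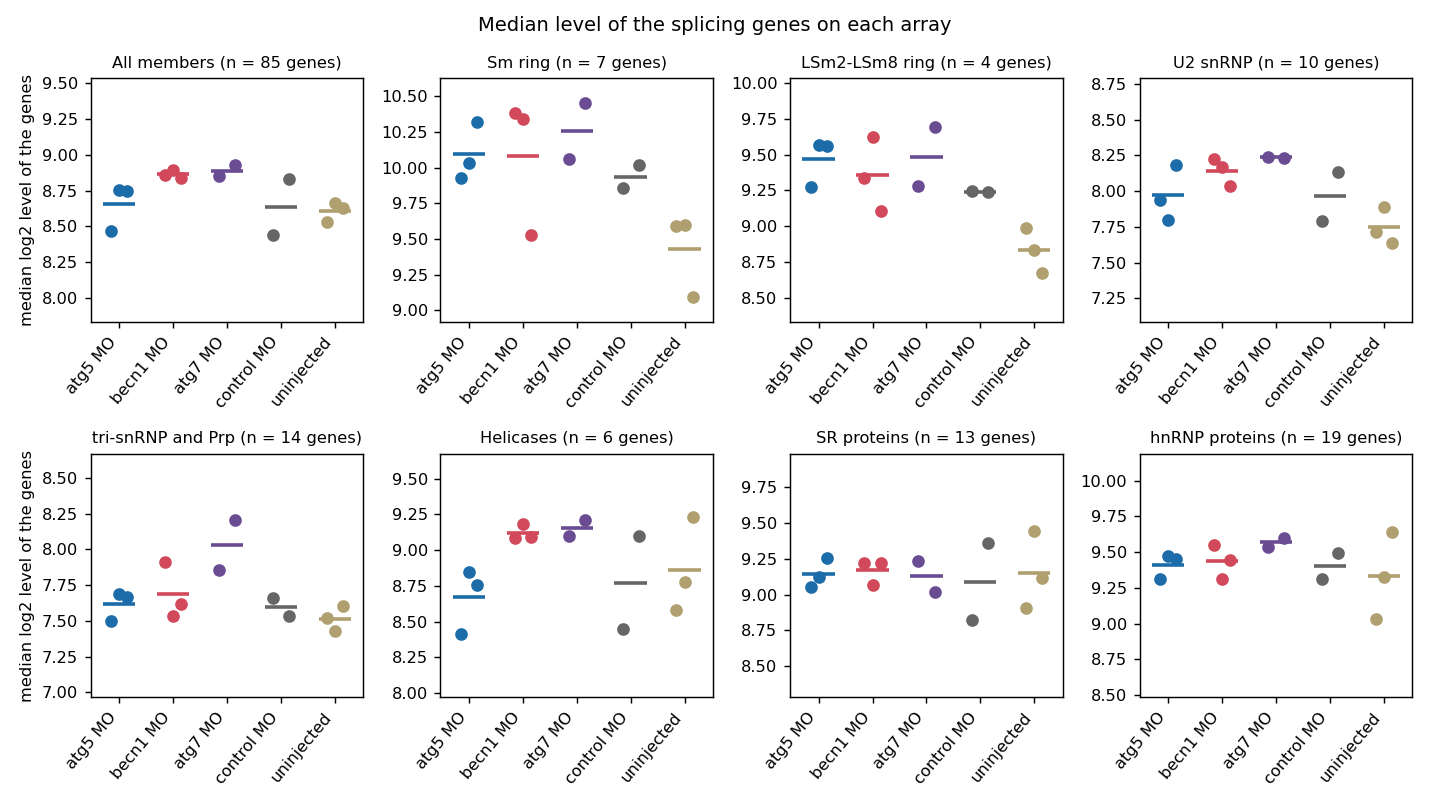
Median log2 level of the splicing genes on each array, for all 85 genes and for 7 roles. Points are arrays, bars are group means, and every panel spans the same log2 range. The becn1 and atg7 points of all members lie at 8.84 or above, and the Sm and LSm panels have their lowest points in uninjected hearts.

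Against both controls, the median difference of the 85 genes was 0.03 in the atg5 hearts, 0.22 in the becn1 hearts and 0.27 in the atg7 hearts, while the median over all probe sets was 0.02, 0.03 and 0.02. A positive difference was seen for 51, 73 and 72 of the 85 genes, where 53.0%, 54.7% and 51.6% of all probe sets had one. The number called among all probe sets was 0 (0%) in the atg5 hearts, 3 (0.0291%) in the becn1 hearts and 59 (0.572%) in the atg7 hearts. An unadjusted p under 0.05 with a positive difference was reached by 11 genes in atg5 (background 4.41%), 13 in becn1 (background 6.70%) and 24 in atg7 hearts (background 13.1%), and with a negative difference by 0 in each (backgrounds 3.14%, 5.53% and 9.49%). All backgrounds are over the probe sets kept, whose median level was 6.77, and are not matched to the brighter splicing genes. In atg5 hearts against control morpholino, the median SE was 0.22 for the 85 genes and 0.27 for all probe sets. The count of 13 in becn1 hearts was 2 without becn1 1, and that of 11 in atg5 hearts was 4 without atg5 1. The backgrounds of these refits are not given here. The arrays of 10 genes in atg5 hearts (background 5.13%), 7 in becn1 (background 4.55%) and 28 in atg7 hearts (background 17.8%) lay wholly above the 5 control arrays.

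With the 3 knockdowns together against both controls, the median was 0.16, 67 of 85 genes lay above 0 (background 53.8%), and 26 had an unadjusted p under 0.05, each of them higher (backgrounds 12.1% higher and 8.61% lower). None of the 85 was among the 25 probe sets called (0.243%). The smallest adjusted p were those of lsm6 (0.0685), sf3b3 (0.0807) and sart1 (0.0854) in limma. The median was 0.10 without control 2, with 56 of 85 genes above 0. The count of 26 was lower without control 2 and without the arrays numbered 1. Each of these refits leaves 1 array in a group, and their share over all probe sets is not given here. Where becn1 1 was left out of the shared fit, lsm6, sf3b3, ddx39aa and dhx16 were called in atg7 hearts, beside 484 of all 10307 probe sets. Where becn1 3 was left out, lsm6, sart1, snrpb2 and snrpf were called in the 3 knockdowns together, beside 411 of all probe sets. In both refits the called share of the 85 genes was near that of all probe sets.

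Against control morpholino alone the set lay higher in becn1 and atg7 hearts too, but the size of this depended on which control array was kept. The medians were 0.01 in atg5, 0.15 in becn1, 0.27 in atg7 and 0.15 in the 3 knockdowns together. The lowest adjusted p of a member was 1, 0.857, 0.374 and 0.872, and 0 members were called, against a background of 0%, 0%, 0.0582% and 0%. At an unadjusted p under 0.05 there were 1, 5, 10 and 7 members, all with a positive difference (backgrounds 1.47%, 2.78%, 5.86% and 2.99% higher, and 0.931%, 2.49%, 4.18% and 2.44% lower). Above 0 lay 46, 66, 70 and 66 of the 85 genes, where 52.2%, 53.4%, 51.9% and 53.8% of all probe sets did. The set median was 8.44 on control 2 and 8.83 on control 3, against 8.53 to 8.66 on the uninjected arrays. Control 3 was also the array with the lowest median intensity. Without control 2 the 4 medians were -0.10, 0.00, 0.06 and -0.03. Without control 3 they were 0.15, 0.26, 0.38 and 0.26. Each of these refits leaves 1 control morpholino array.

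**Figure D2:**
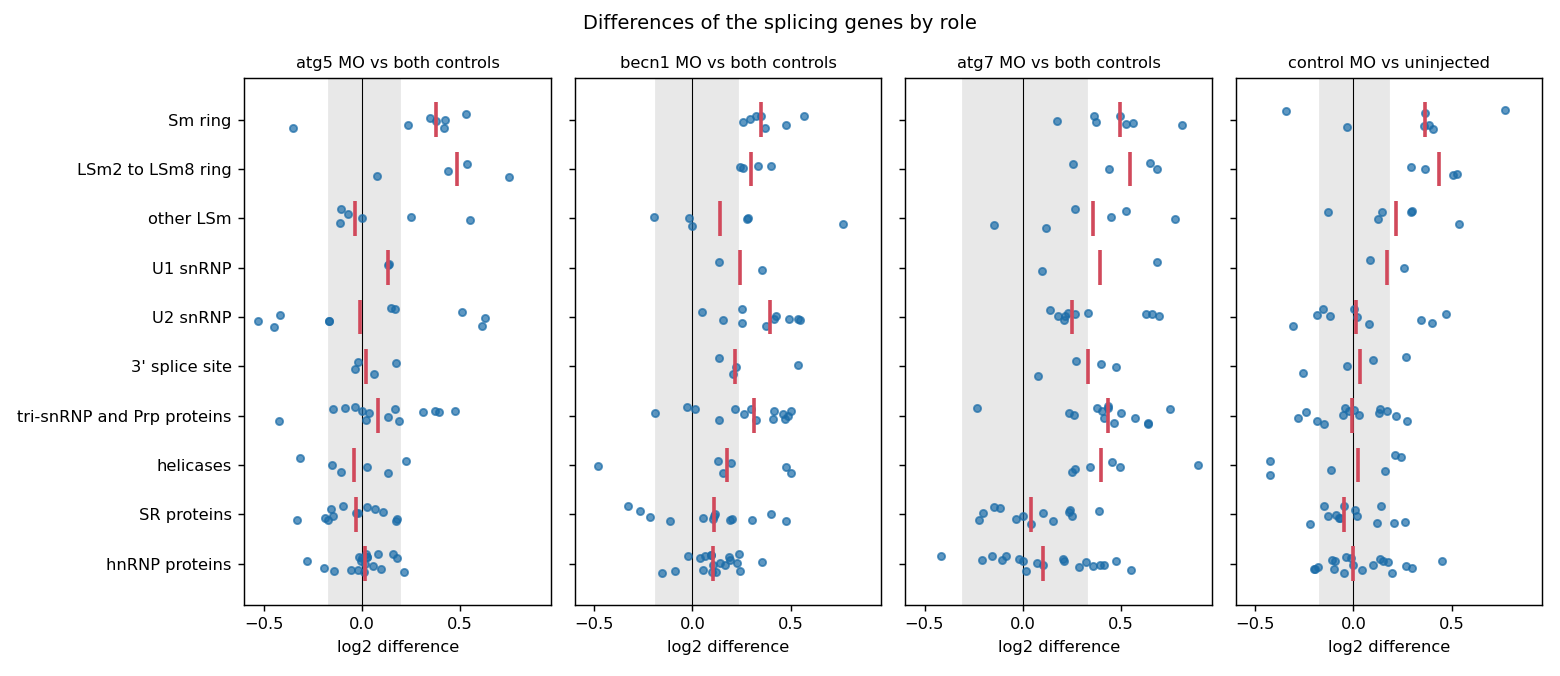
Log2 differences of the 85 splicing genes by role, for each knockdown against both controls and for control morpholino against uninjected. Points are genes, red bars are medians of a role, and the grey band holds the middle 50% of all probe sets. The Sm and LSm rings lie to the right of 0 in all 4 panels, apart from snrpb in 2 of them and snrpd3 at -0.03 in the last, while SR and hnRNP genes centre near 0.

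The ring proteins of the snRNPs had the highest medians of any role in atg5 and atg7 hearts against both controls, and in becn1 hearts the U2 genes did. Against control morpholino alone the order in atg7 hearts was another: helicases had a median of 0.48, the tri-snRNP and Prp genes 0.43, the other LSm genes 0.35, the LSm ring 0.34 and the Sm ring 0.19. The 7 Sm genes had a median difference of 0.38 in the atg5 hearts, 0.35 in the becn1 hearts and 0.49 in the atg7 hearts, and the 4 genes of the LSm ring of U6 had 0.49, 0.30 and 0.54. None was called. In the 3 knockdowns together the Sm genes lay between 0.33 and 0.42, and 5 of 7 had an unadjusted p under 0.05 (background 12.1% higher).

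lsm6, a subunit of the U6 ring, was at 11.02, 11.07 and 11.05 in the atg5 hearts, 11.08, 10.90 and 10.57 in the becn1 hearts and 10.97 and 11.41 in the atg7 hearts, against 10.79 and 10.74 with control morpholino and 10.53, 10.20 and 10.04 uninjected. The atg5 and atg7 arrays all lay above the 5 controls, and becn1 3 lay within them. The difference in the 3 knockdowns together was 0.52 (SE 0.11). lsm7, another subunit of the ring, was at 9.46, 10.06 and 9.81 in the atg5 hearts, 9.30, 9.82 and 9.17 in the becn1 hearts and 9.32 and 10.03 in the atg7 hearts, against 9.20 and 9.15 with control morpholino and 9.23, 8.91 and 8.51 uninjected. Its atg5 and atg7 arrays did not overlap the controls and its becn1 arrays did, with differences of 0.75 (SE 0.22) in the atg5 hearts, 0.40 in the becn1 hearts and 0.65 in the atg7 hearts. lsm8, the subunit that tells the U6 ring from the cytoplasmic decay ring, differed by 0.44, 0.26 and 0.44, and lsm4 by 0.08, 0.24 and 0.25.

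Of these ring genes, 5 of 7 Sm and 4 of 4 LSm genes also lay higher with control morpholino than without injection (background 50.8%). snrpf, an Sm ring protein, was at 10.37, 10.24 and 10.44 in the atg5 hearts, 10.61, 10.47 and 9.80 in the becn1 hearts and 10.44 and 10.62 in the atg7 hearts, against 10.21 and 10.51 with control morpholino and 9.75, 9.60 and 9.41 uninjected. All 10 arrays of injected embryos lay above the 3 uninjected ones, and the knockdown arrays spanned the control morpholino arrays. Its difference from control morpholino was -0.01 in the atg5 hearts, -0.06 in the becn1 hearts and 0.17 in the atg7 hearts, each smaller than its SE. Control morpholino against uninjected gave 0.77 (SE 0.21, unadjusted p = 0.00304) for snrpf, 0.53 (SE 0.16) for lsm4 and 0.51 (SE 0.18) for lsm6, with an adjusted p of 1 for each in limma. The 7 Sm genes had a median of 0.37 and the 4 LSm ring genes of 0.43 in that comparison, and against control morpholino alone the 3 knockdowns together had 0.20 and 0.23.

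Over all 85 genes, control morpholino against uninjected had a median of 0.04, with 49 genes above 0 (background 50.8%), 0 called (background 0%) and 4 at an unadjusted p under 0.05, all higher (backgrounds 1.57% higher and 1.01% lower). The 2 control arrays lay above all uninjected arrays for 10 genes (background 10.9%) and below them for ddx39b and lsm14aa (background 7.28%). Beside the ring genes, hnrnpl, an hnRNP that binds CA-rich RNA, differed by 0.45. The members with the smallest p on the other side were ddx39b (-0.43, SE 0.30), an RNA export and splicing helicase, ddx46 (-0.42, SE 0.30) and prpf4ba (-0.24, SE 0.24), a splicing kinase. The set median was 0.22 without control 2 and -0.05 without control 3.

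Other Sm genes differed in their pattern. snrpe and snrpg, further proteins of the ring, differed from both controls by 0.42 and 0.42 in the atg5 hearts, 0.37 and 0.26 in the becn1 hearts and 0.36 and 0.37 in the atg7 hearts. snrpd1 differed by 0.23, 0.48 and 0.49, and the paralogs snrpd3 and snrpd3l by 0.53 and 0.34 in the atg5 hearts, 0.29 and 0.35 in the becn1 hearts and 0.17 and 0.52 in the atg7 hearts. snrpb, the Sm protein with a proline-rich tail, was at 6.51, 7.26 and 6.95 in the atg5 hearts, 7.87, 7.91 and 7.70 in the becn1 hearts and 7.63 and 8.51 in the atg7 hearts, against 6.47 and 7.70 with control morpholino and 7.48, 7.59 and 7.23 uninjected. The atg5 arrays lay below all becn1 and atg7 arrays, and control 2 was as low as atg5 1. snrpb thus differed by 0.92 (SE 0.32) in becn1 and 1.16 (SE 0.35) in atg7 relative to atg5 hearts, with adjusted p of 0.812 and 0.299 in limma.

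**Figure D3:**
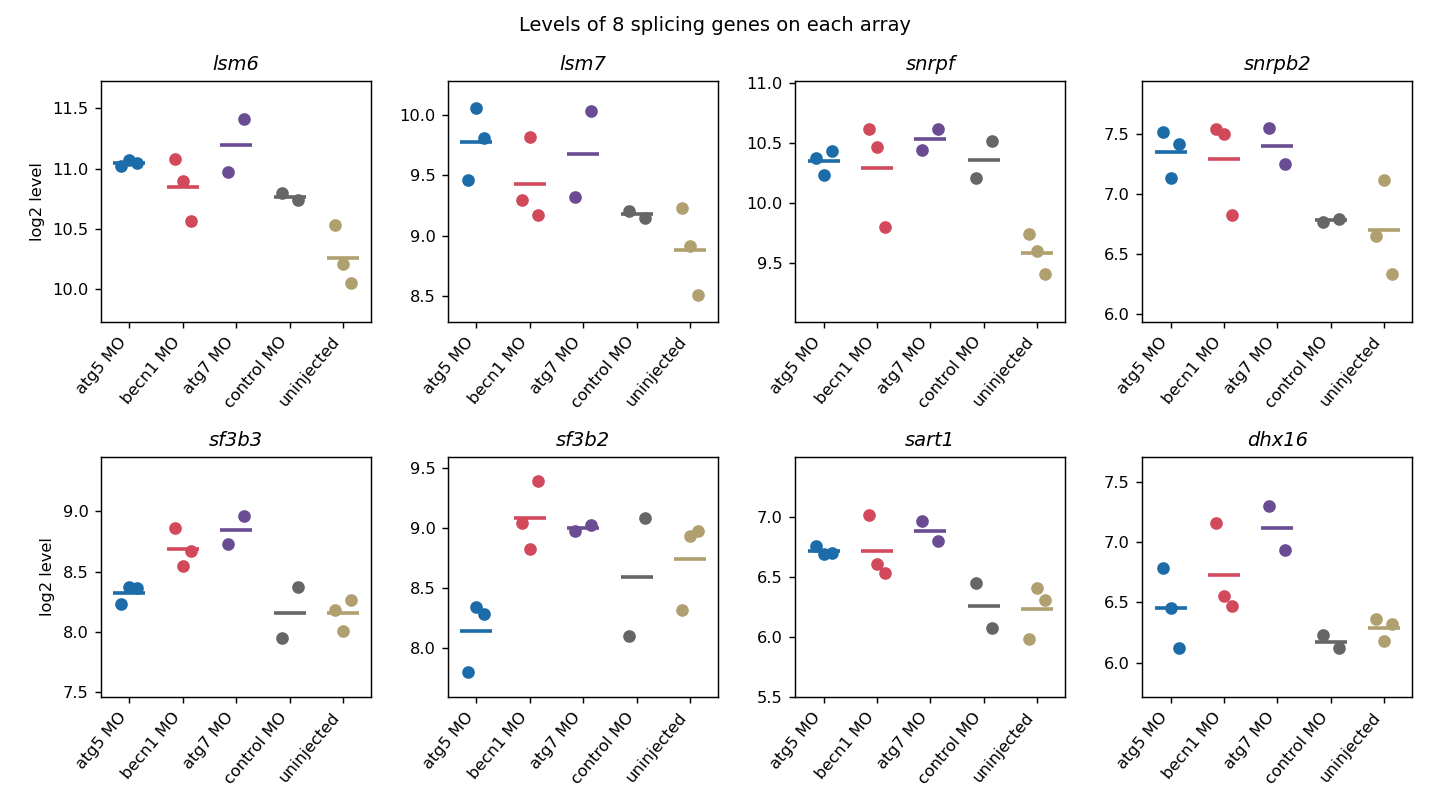
Log2 level of 8 splicing genes on each array. Points are arrays, bars are group means, and every panel spans 2 log2 units. The 3 uninjected arrays are the lowest for snrpf, all 8 knockdown arrays lie above the 5 controls for sart1, and the atg5 arrays lie below the becn1 and atg7 arrays for sf3b2.

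Several U2 snRNP genes lay lower in atg5 than in becn1 and atg7 hearts, without a call. All 10 measured genes had positive differences from both controls in becn1 (median 0.39) and in atg7 hearts (median 0.25), and 5 of 10 did in atg5 hearts (median -0.01), where 54.7%, 51.6% and 53.0% of all probe sets did in becn1, atg7 and atg5 hearts. sf3b2, a subunit of the SF3B complex that holds the branch point, was at 7.80, 8.34 and 8.28 in the atg5 hearts, 9.04, 8.82 and 9.38 in the becn1 hearts and 8.97 and 9.02 in the atg7 hearts, against 8.10 and 9.08 with control morpholino and 8.32, 8.93 and 8.98 uninjected. Its 5 controls overlapped both the atg5 arrays and the becn1 and atg7 arrays. sf3b2 lay 0.94 (SE 0.27, unadjusted p = 0.00418) higher in becn1 and 0.86 (SE 0.30) higher in atg7 than in atg5 hearts, with adjusted p of 0.812 and 0.337 in limma. sf3a2 and sf3b4, further subunits of the same particle, differed from both controls by -0.45 and -0.42 in the atg5 hearts, 0.43 and 0.25 in the becn1 hearts and 0.21 and 0.18 in the atg7 hearts. sf3a1 differed by -0.17, 0.37 and 0.23.

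sf3b3, the scaffold subunit of SF3B, was at 8.23, 8.37 and 8.36 in the atg5 hearts, 8.86, 8.54 and 8.67 in the becn1 hearts and 8.73 and 8.96 in the atg7 hearts, against 7.95 and 8.37 with control morpholino and 8.18, 8.01 and 8.27 uninjected. The becn1 and atg7 arrays all lay above the controls and the atg5 arrays did not. Its differences from both controls were 0.17 in the atg5 hearts, 0.53 (SE 0.15) in the becn1 hearts and 0.69 (SE 0.17) in the atg7 hearts. The small subunits sf3b5 and sf3b6 and the U2 protein gene snrpb2 had positive differences in atg5 hearts too, of 0.63, 0.51 and 0.61. They had 0.49, 0.15 and 0.55 in the becn1 hearts, and 0.63, 0.21 and 0.66 in the atg7 hearts. snrpb2 was at 7.51, 7.13 and 7.41 in the atg5 hearts, 7.54, 7.50 and 6.82 in the becn1 hearts and 7.54 and 7.24 in the atg7 hearts, against 6.76 and 6.79 with control morpholino and 6.65, 7.11 and 6.33 uninjected, so that becn1 3 alone among the knockdown arrays lay within the controls. sf3b1, the subunit that contacts the branch point, differed by -0.17, 0.05 and 0.14, and sf3a3 by 0.15, 0.25 and 0.27.

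Of the 2 U1 genes, snrpc, which steadies U1 on the 5' splice site, differed from both controls by 0.14 in the atg5 hearts, 0.35 in the becn1 hearts and 0.68 (SE 0.20) in the atg7 hearts, and snrpa, a stem-loop binding protein, by 0.13, 0.13 and 0.10. At the 3' splice site, u2af1, the small U2AF subunit that reads the AG, differed by 0.06, 0.54 (SE 0.20) and 0.47. Its partner u2af2b, which binds the pyrimidine tract, differed by 0.17, 0.13 and 0.07 (its other probe set gave -0.09 in atg7 hearts), and the related factors puf60a and puf60b by -0.02 and -0.03 in the atg5 hearts, 0.22 and 0.21 in the becn1 hearts and 0.40 and 0.27 in the atg7 hearts.

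Among the 14 tri-snRNP and Prp genes, 9 lay above 0 against both controls in atg5 hearts (median 0.08), 12 in becn1 (median 0.31) and 13 in atg7 hearts (median 0.43), against the backgrounds of 53.0%, 54.7% and 51.6%. sart1, which helps the tri-snRNP to assemble, was the only one of the 85 genes whose 8 knockdown arrays all lay above the 5 control arrays, a pattern that 0.757% of all probe sets had. A count of 1 in 85 genes is near that share. sart1 was at 6.76, 6.69 and 6.70 in the atg5 hearts, 7.01, 6.61 and 6.53 in the becn1 hearts and 6.96 and 6.80 in the atg7 hearts, against 6.45 and 6.07 with control morpholino and 5.98, 6.41 and 6.30 uninjected. The gap between becn1 3 and control 2 was small, and the difference over the 3 knockdowns was 0.53 (SE 0.14). sart3, a recycling factor for U4 and U6, differed by -0.09, -0.19 and -0.23.

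prpf19, the ubiquitin ligase of the complex that activates the spliceosome, was at 8.81, 9.0 and 9.0 in the atg5 hearts, 9.67, 9.05 and 9.04 in the becn1 hearts and 9.56 and 9.44 in the atg7 hearts, against 8.17 and 9.28 with control morpholino and 8.69, 8.93 and 8.70 uninjected. The atg7 arrays lay above the controls, and in the other knockdowns only becn1 1 did. Its differences from both controls were 0.19, 0.50 and 0.75. prpf8, the core of U5, differed by 0.13, 0.26 and 0.46, the U4/U6 proteins prpf4 and prpf3 by 0.17 and 0.03 in the atg5 hearts, 0.32 and -0.03 in the becn1 hearts and 0.64 and 0.50 in the atg7 hearts, and the bridge between U5 and U4/U6, prpf6, by -0.14, 0.14 and 0.43. The kinase paralogs prpf4ba and prpf4bb lay at 0.39 and 0.31 in the atg5 hearts, 0.48 and 0.41 in the becn1 hearts and 0.38 and 0.43 in the atg7 hearts. prpf31, which joins U4/U6 to U5, differed by 0.02, 0.30 and 0.23. The tri-snRNP helicase ddx23 differed by -0.03, 0.46 and 0.26, and prpf38a, which acts when the spliceosome is activated, by 0.37, 0.41 and 0.57. prpf39, a U1-associated protein, differed by -0.42, 0.01 and 0.40, and lay 0.83 (SE 0.25) higher in atg7 than in atg5 hearts (limma adjusted p = 0.299).

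dhx16, the helicase that triggers the first catalytic step, was at 6.78, 6.45 and 6.12 in the atg5 hearts, 7.16, 6.55 and 6.47 in the becn1 hearts and 7.31 and 6.93 in the atg7 hearts, against 6.23 and 6.12 with control morpholino and 6.37, 6.18 and 6.32 uninjected. The atg7 and becn1 arrays lay above the controls, while atg5 3 was level with the lowest of them. Its differences from both controls were 0.22, 0.50 and 0.89 (SE 0.23), and from control morpholino alone 0.95 (SE 0.28, unadjusted p = 0.00482) in atg7 hearts. The helicase paralogs ddx39aa and ddx39ab, which act in splicing and RNA export, differed from both controls by 0.13 and -0.32 in the atg5 hearts, 0.20 and 0.15 in the becn1 hearts and 0.49 and 0.27 in the atg7 hearts. ddx39b differed by 0.02, -0.48 and 0.34, and was the member with the smallest p between atg7 and becn1 hearts (0.82, SE 0.30, limma adjusted p = 0.963). ddx46, which loads U2, differed by -0.15, 0.48 and 0.45, and dhx15, which takes the complex apart, by -0.11, 0.13 and 0.25.

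The SR and hnRNP proteins, which bear on the choice of splice sites, had the lowest medians of any role in becn1 and atg7 hearts against both controls. Against control morpholino alone this held in atg7 hearts (SR 0.08, hnRNP 0.06) but not in becn1 hearts, where the SR median of 0.15 and the hnRNP median of 0.10 lay above those of the helicases (0.08), the LSm ring (0.08) and the other LSm genes (0.03). The 13 SR genes had medians of -0.03 in the atg5 hearts, 0.11 in the becn1 hearts and 0.04 in the atg7 hearts against both controls, with 5, 9 and 8 above 0 (backgrounds 53.0%, 54.7% and 51.6%), and 0, 1 and 0 higher at an unadjusted p under 0.05 (backgrounds 4.41%, 6.70% and 13.1%). In the 3 knockdowns together they lay between -0.29 and 0.22, with 0 called in limma. srsf1b and srsf6a, whose becn1 values were the lowest by p among SR genes, differed by -0.03 and -0.02 in the atg5 hearts, -0.27 and -0.21 in the becn1 hearts and -0.12 and 0.10 in the atg7 hearts. In becn1 hearts all their probe sets were negative, with -0.27 and -0.54 (SE 0.23) for srsf1b and -0.21, -0.06 and -0.04 for srsf6a. Elsewhere their probe sets disagreed in sign, for srsf1b in atg5 hearts (-0.03 and 0.03) and for srsf6a in the 3 knockdowns together (-0.04, -0.18 and 0.04). The founding SR genes srsf1a and srsf2a differed by 0.18 and -0.15 in the atg5 hearts, 0.11 and 0.06 in the becn1 hearts and 0.04 and 0.00 in the atg7 hearts. srsf3b, a small SR protein, had the lowest value (-0.29, SE 0.22) with a wide spread: it was at 8.0, 8.75 and 9.02 in the atg5 hearts, 8.36, 8.65 and 8.78 in the becn1 hearts and 8.54 and 8.90 in the atg7 hearts, against 8.75 and 9.36 with control morpholino and 8.30, 9.44 and 8.63 uninjected, and the groups overlapped throughout. srsf5b was the only member whose atg7 arrays, at 9.37 and 9.54, lay wholly below those of both controls (9.68 and 9.63 with control morpholino, 9.56, 9.71 and 9.84 uninjected), with a difference of -0.22 (SE 0.12), where 11.6% of all probe sets lay wholly below. srsf10b, a repressor that is switched by phosphorylation, and srsf7a differed by -0.19 and -0.17 in the atg5 hearts, 0.48 and 0.40 in the becn1 hearts and 0.39 and 0.23 in the atg7 hearts.

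The 19 hnRNP genes had medians of 0.02, 0.10 and 0.10 in the same comparisons. hnrnpk, hnrnpdl and hnrnpaba, abundant binders of nascent RNA, differed by at most 0.11 in size in each knockdown. Among the larger values in atg7 hearts were those of hnrnpabb (0.55, SE 0.18) and hnrnph1l (0.48). The paralogs hnrnpabb and hnrnpaba lay at 0.55 and -0.08 there. hnrnpa0a and hnrnpa0b had 3 and 4 probe sets past the filter, and these disagreed in sign. In atg7 hearts the brightest probe set of hnrnpa0a gave -0.42 (SE 0.25) and the others 0.20 and 0.48, and that of hnrnpa0b gave -0.16 and the others -0.32, 0.07 and 0.53, so that neither gene has a settled direction. Of the 12 genes with several probe sets past the filter, 4 had opposite signs against both controls in atg5, 1 in becn1 and 3 in atg7 hearts, and 4 in the 3 knockdowns together (hnrnpa0a, hnrnpa0b, srsf6a and u2af2b). hnrnpa1b differed by -0.28, 0.19 and 0.00, and hnrnpr by -0.19, -0.16 and -0.21. hnrnpa0l was read by a probe set whose suffix marks probes shared with other transcripts.

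**Figure D4:**
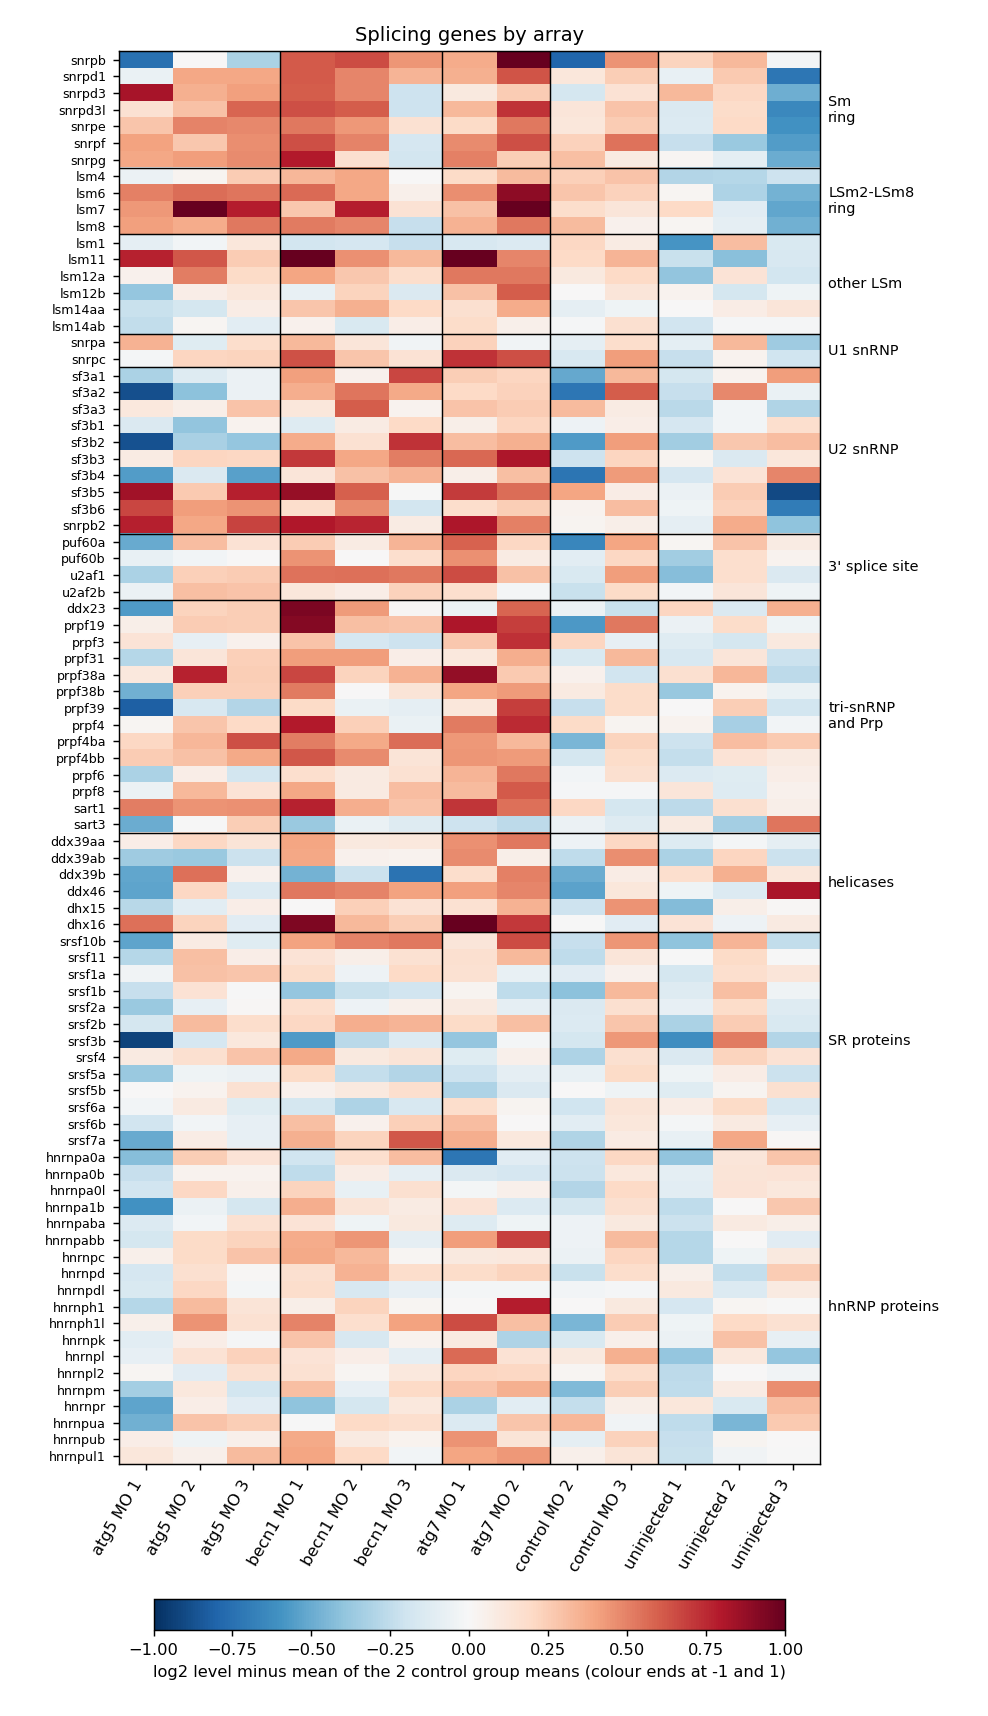
Log2 level of each of the 85 splicing genes on each array, minus the average of the control morpholino and uninjected group means for that gene, with genes grouped by role. Red is higher and blue lower, and the colour ends at -1 and 1. atg5 1 and control 2 have the most blue cells of the injected arrays, and uninjected 3 is blue through the Sm and LSm rings.

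Arrays of the same group differed widely in atg5, control morpholino and uninjected hearts, and less in becn1 and atg7 hearts. On atg5 1, 32 of the 85 genes lay above the average of the control groups, against 63 and 63 on atg5 2 and atg5 3. The becn1 arrays had 73, 67 and 61 and the atg7 arrays 71 and 68, against 28 and 74 with control morpholino and 22, 58 and 37 uninjected. Without atg5 1 the median of atg5 hearts against both controls was 0.17 in place of 0.03, and without all arrays numbered 1 it was 0.15.

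Between the knockdowns the set had medians of 0.10 in becn1 relative to atg5, 0.21 in atg7 relative to atg5 and 0.06 in atg7 relative to becn1 hearts, with no member called (backgrounds 0%, 0.0194% and 0.0194%). At an unadjusted p under 0.05 there were 13 and 12 members with a positive difference relative to atg5 (backgrounds 3.76% and 6.56%) and 0 with a negative one (backgrounds 2.35% and 5.2%). In atg7 relative to becn1 hearts there were 3 with a positive difference (background 2.5%), prpf3, ddx39b and lsm12b, and 1 with a negative one (background 1.85%), srsf5b. Above 0 lay 64, 63 and 51 of the 85 genes (backgrounds 49.9%, 49.8% and 49.4%). prpf6 had the smallest p relative to atg5 hearts in atg7 hearts (0.58, SE 0.16, limma adjusted p = 0.270). Without the arrays numbered 1 the first median was -0.03, with 34 of 85 genes above 0. Without atg5 1 alone, the medians relative to atg5 were 0.03 in becn1 and 0.12 in atg7 hearts, and the count of 13 was 1. The count of 12 was lower without atg7 2, a refit that leaves 1 atg7 array. The backgrounds of these refits are not given here.

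The members of the LSm family outside the U6 ring do other work. lsm11, part of the U7 particle that trims histone mRNA, was at 5.73, 5.59 and 5.23 in the atg5 hearts, 6.48, 5.43 and 5.29 in the becn1 hearts and 6.03 and 5.45 in the atg7 hearts, against 5.17 and 5.31 with control morpholino and 4.75, 4.55 and 4.80 uninjected. The uninjected arrays were the lowest, and the 3 knockdowns together differed from both controls by 0.70 (SE 0.21, limma adjusted p = 0.120). lsm1, which replaces lsm8 in the ring that starts mRNA decay in the cytoplasm, differed by 0.00, -0.20 and -0.15, and lsm14aa, a P-body protein, by -0.11, 0.28 and 0.27. The paralogs lsm12a and lsm12b differed by 0.25 and -0.07 in the atg5 hearts, 0.28 and 0.00 in the becn1 hearts and 0.53 and 0.45 in the atg7 hearts. A further probe set of lsm12b gave 0.14 in atg5 hearts, opposite in sign.

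A second list held splicing genes whose names the rule does not cover, such as U5 and U1 proteins, factors of the catalytic core, snRNP assembly factors and tissue-specific regulators. Of its 175 genes 130 were on the array and 120 passed the filter, and 0 were called in any comparison. Their median difference from both controls was 0.04 in the atg5 hearts, 0.15 in the becn1 hearts and 0.17 in the atg7 hearts, with 68, 90 and 89 of the 120 genes above 0 (backgrounds 53.0%, 54.7% and 51.6%). In the 3 knockdowns together 25 were higher and 3 lower at an unadjusted p under 0.05 (backgrounds 12.1% and 8.61%). Values of 0.50 (SE 0.12) for cwc15 and 0.50 for ctnnbl1, both of the Prp19-related complex, 0.65 (SE 0.17) for phax, which exports snRNAs, 0.53 for gemin5, which loads Sm rings onto snRNA, 0.45 for txnl4a of U5 and 0.65 for the SF3B subunit gene phf5a were among the higher ones. The 3 on the other side were esrp2 (-0.63), a regulator of epithelial splicing, rbfox1 (-0.56), of neurons and muscle, and ptbp3 (-0.48). The U1 gene snrnp70 differed by 0.04, the U5 GTPase eftud2 by 0.13 and smn1, which builds snRNPs, by -0.04. These genes were picked from the list after their values were seen.

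Other transcripts differed between the same arrays. The 55 cell cycle genes had a median level of 7.17, 7.48 and 7.45 in the atg5 hearts, 8.21, 7.62 and 7.41 in the becn1 hearts and 8.15 and 8.01 in the atg7 hearts, against 7.25 and 7.44 with control morpholino and 7.23, 7.11 and 6.90 uninjected. Their median difference from both controls was 0.19, 0.41 and 0.70, and 1 of them, rrm1 of ribonucleotide reductase, was called in atg7 hearts. Against control morpholino alone their median in atg5 hearts was -0.07, with 25 of 55 genes above 0 (background 52.2%). The becn1 and atg7 medians against it are not given here. The 18 photoreceptor and lens markers that passed the filter had medians of 7.42, 7.72 and 8.13 in the atg5 hearts, 4.0, 6.14 and 7.46 in the becn1 hearts and 4.02 and 5.90 in the atg7 hearts, against 9.08 and 8.60 with control morpholino and 9.46, 8.24 and 9.01 uninjected. Of the 20 on the array of 26 listed, 3 lay under an intensity of 16 on both atg7 arrays, and 2 on all arrays of each other group. The summed intensity of the 20 genes was 8361 to 11211 in the atg5 hearts, 3071 to 11851 in the becn1 hearts and 8598 to 9773 in the atg7 hearts, against 12174 to 18726 with control morpholino and 10744 to 20473 uninjected. The lens crystallin gene cryaa and the red cone opsin gene opn1lw1 did not pass the filter. Median differences of the markers of skeletal muscle, liver and yolk, neuron and glia, and epidermis from both controls were -0.69, -0.79, -0.07 and -0.21 in the atg5 hearts, -0.59, -1.12, -0.27 and -0.27 in the becn1 hearts and -0.84, -0.45, -0.48 and -0.51 in the atg7 hearts. Those of leukocytes, blood and heart muscle were 0.06, 0.03 and 0.32 in the atg5 hearts, 0.38, 0.12 and 0.04 in the becn1 hearts and 0.58, 0.41 and 0.35 in the atg7 hearts. The heart muscle markers varied within groups. Their median level was 7.99, 6.36 and 7.04 in the atg5 hearts, 7.88, 6.83 and 6.70 in the becn1 hearts and 7.85 and 6.51 in the atg7 hearts. It was 7.24 and 6.96 with control morpholino and 6.79, 7.38 and 6.86 uninjected. The knockdown arrays numbered 1 thus lay above all other arrays. The part of these transcripts, and of the RNA integrity of atg7 2, in the values of the splicing genes was not tested. Without atg7 2, fewer than 24 members had a positive difference with an unadjusted p under 0.05 in atg7 hearts against both controls. That refit leaves 1 atg7 array, and its share over all probe sets is not given here.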

How the data were processed

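Signal intensities on a linear scale were deposited by the authors for each probe set. MAS5 made them, per the submitters' processing notes, and the sources used here name no version, scaling target or detection calls. The array medians showed no common scale, so log2 values (no pseudocount) of the deposited intensities were quantile normalized over the 13 arrays. Of 15617 probe sets, 115 controls were left out. Kept were the probe sets above their array's 40th percentile on 2 or more arrays. Platform annotation gave 1 symbol for 10795 probe sets, several for 135 and none for 4572. All 87 members were found in the current gene table, and 1 probe set annotated to several genes was left out.

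Means of the 5 groups were fitted with limma 3.58.1 under R 4.3.3, where the prior variance followed the mean level (8 residual and 4.61 prior degrees of freedom). Pooled knockdowns and both controls had equal weight. Tests were two-sided with Benjamini-Hochberg adjustment. Only the spread between these samples enters the p-values, and the number of arrays limits the precision. The procedure was run on simulated data in which arrays varied independently and the added changes were larger than most differences given here. That run does not show how the procedure handles smaller differences or arrays whose deviations correlate.

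The members, lists and comparisons were chosen with earlier results of these data known. Named were the 3 members with the smallest p in each direction of each comparison, and further members by role, some chosen after their values were seen. Alternatives covered scaling, filter, floor, prior, array weights, the choice of controls, a replicate block, probe set choice and leaving out arrays. In becn1 against atg5, same-numbered deviations correlated over 0.1 in all 3 pairs (0.417, 0.124 and 0.136), a pairing taken from the data, and the block changed no call there. Other-numbered arrays of these groups reached 0.343 (atg5 2 with becn1 3). Same-numbered pairs of atg7 with atg5 (0.433 and 0.307) and with becn1 (0.620 and 0.579) lay over 0.1 too.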

Additional observations from a re-analysis of the deposited data

How the results depend on the processing

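Over the alternatives, 292 of 307 values of the set's median moved by less than the pooled SD within groups. Many of these values could not move. Leaving out an array that is not part of a comparison, or changing the prior, leaves its differences as they were. The same holds for the direction of single named genes, so these counts overstate how stable the results are. That SD, 0.13, is larger than the medians in atg5 hearts and near several others, so a move under it can still be large beside the median. The number of members called stayed at 0 in 296 of 307. Of 1769 checks of single named genes 1743 kept direction and call, 17 gained a call and 9 turned direction. On the deposited scale, without normalization, the set's medians were 0.31 in atg5, 0.51 in becn1, 0.55 in atg7 and 0.45 in the 3 knockdowns together against control morpholino, 0.17, 0.40 and 0.30 in atg5, becn1 and the 3 knockdowns against both controls, and -0.27 for control morpholino against uninjected. The median of all probe sets moved with them, to 0.29, 0.33, 0.27 and 0.30, then 0.13, 0.18 and 0.14, and -0.32. On that scale srsf6a turned to 0.18 in becn1, srsf5b to 0.12 in atg7, and lsm1 to 0.045 and srsf5a to 0.11 in the 3 knockdowns against control morpholino, and hnrnpa0b, whose probe sets disagree, to 0.035 in atg7 and 0.10 in the 3 knockdowns against both controls. With array weights, 2 members were called in atg5 (lsm6, lsm7) and 5 in the 3 knockdowns (lsm6, lsm7, sart1, sf3b3, snrpb2) against both controls. Against uninjected hearts alone, 3 were called in atg7 (ddx39aa, lsm6, snrpf) and 2 in the 3 knockdowns (lsm6, snrpf), and lsm1 turned to 0.031. Without the arrays numbered 1, 1 was called in atg7 (lsm6) and 2 in the 3 knockdowns (lsm6, lsm7) against both controls. Leaving out 1 array at a time, the medians ran from -0.10 to 0.15 in atg5, 0.0032 to 0.26 in becn1, 0.062 to 0.38 in atg7 and -0.034 to 0.26 in the 3 knockdowns against control morpholino, from -0.0090 to 0.17, 0.14 to 0.28, 0.20 to 0.41 and 0.10 to 0.25 against both controls, and from -0.046 to 0.22 for control morpholino against uninjected. Members called ran from 0 to 4 in atg7 and in the 3 knockdowns against both controls. Where they reached 4, 484 and 411 of all probe sets were called. For the calls with array weights, against uninjected hearts alone and without the arrays numbered 1, no share over all probe sets is given here. sf3b2 in atg5 against control morpholino ran from -0.94 to 0.043, and prpf4ba in control morpholino against uninjected from -0.58 to 0.10. A group left with 1 array was assumed to vary like the others. The labels do not say that a replicate number marks a shared batch. Correlations of same-numbered deviations ran from -0.407 to 0.620 over 22 pairs (median 0.13, and -0.066 for other numbers), 7 of 7 pairs among knockdown arrays and 5 of 15 with a control array lay over 0.1, and 7 of 13 arrays correlated best with their own number. Deviations sum to 0 within a group, and in a group of 2 arrays they mirror each other. The pairs are therefore not independent, and the median for other numbers is no separate reference. With a replicate block, 0 members were called in any comparison. In atg7 relative to atg5 hearts, 20 members in place of 12 were higher at an unadjusted p under 0.05. The share of all probe sets at that threshold with the block is not given here. In the 3 knockdowns against both controls the set's median was 0.20 with the block, and 152 probe sets were called in place of 25. There were 85 called in place of 3 in becn1 and 65 in place of 59 in atg7 hearts. Over all alternatives the 3 knockdowns against both controls gave 0 to 449 called probe sets. The causes of these changes were not tested. None of the 85 genes lay under an intensity of 16 on any array, but some came near it. The lowest log2 levels were 4.55 for lsm11, 4.70 for hnrnph1 and 4.74 for ddx23. The sources used here name no detection calls, so that intensity does not show which signals were detected.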
